A study of Mus musculus with 2 samples.

Results

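A set of 8 genes of thyroid hormone activation and reception were examined in cultured mouse myoblasts: the deiodinases Dio1, Dio2 and Dio3, the receptors Thra and Thrb, the receptor partners Rxra and Rxrb, and the transporter Slc16a10. They were picked by name, with earlier results of these data known, and found through every probe set that the array's annotation assigns to that gene alone. Of the 8 symbols, 7 were found, out of 18193 genes named in this way, on 16 probe sets. Dio3 had no probe set assigned to it alone, so no level of Dio3 was analysed here.

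The cells were primary myoblasts, the precursors that fuse into muscle fibres, taken from newborn mice of the Sv129 strain and grown on wells coated with laminin and collagen. The control cells spent 4 hours in DMEM with 2% horse serum. The Wnt3a cells spent the same 4 hours in the same medium to which Wnt3a had been added at 100 ng/ml. Wnt3a is a secreted protein whose receptors keep β-catenin from being degraded. Total RNA of each went onto 1 Affymetrix array, so the design holds 2 arrays, 1 per condition, and no replicate. Every value below is a single measurement, no difference has an error between cultures, and no test was possible. The labels do not give the number of animals or cultures behind each RNA. Horse serum was present in both conditions, and the labels do not say how much thyroid hormone it carried.

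The thyroid gland releases mainly thyroxine, a prohormone that enters cells through membrane transporters. Inside the cell, type 2 deiodinase (Dio2) removes an iodine from its outer ring and makes triiodothyronine, the hormone that binds the nuclear receptors, while type 3 deiodinase (Dio3) inactivates both. The receptors sit on DNA mostly as heterodimers with RXR, with corepressors when no hormone is bound and with coactivators when it is. In muscle this system is known for its part in myoblast differentiation, regeneration, fibre type and energy use, and Dio2 is known to rise as muscle precursors differentiate.

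Dio2 was the one member with a large difference between the arrays. On its brightest probe set the intensity was 83.0 in the control and 222.6 with Wnt3a. On the log2(intensity + 1) scale, used for all levels below, that is 6.39 and 7.80, a difference of 1.41 (Wnt3a minus control) or 2.66-fold. The other members with a probe set differed by less than 1.5-fold on all of their 13 probe sets, with differences from -0.27 to 0.42. A gene was called measured where its brightest probe set reached a log2 level of 6 (63 in intensity) on either array, and 5 of the 7 members were measured: Dio2, Slc16a10, Thra, Rxra and Rxrb. Of these 5, 1 was higher by 2-fold or more, where 0.254% of the 11397 measured genes were, and 0 lower, where 0.0614% were. At 1.5-fold the members gave the same 1 and 0, beside 0.886% and 0.342% of measured genes. Because the members were chosen with these differences known, nothing is read from that comparison.

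**Figure D1:**
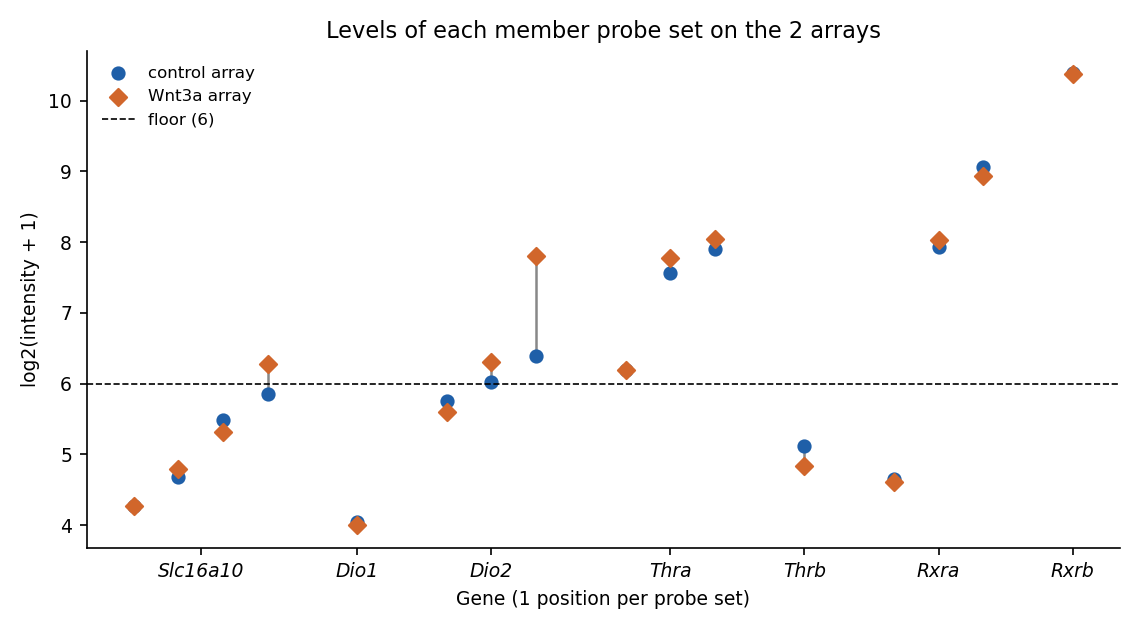
Level of each of the 16 member probe sets on the control array (circles) and the Wnt3a array (diamonds), in log2(intensity + 1), with a grey line joining both values and a dashed line at the floor of 6. The brightest Dio2 probe set goes from 6.39 to 7.80, while the symbols of the other probe sets lie close together; heights of different probe sets are not comparable.

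The transporter Slc16a10, also called MCT10, carries thyroid hormones and aromatic amino acids across the plasma membrane. Its brightest probe set had an intensity of 57.1 in the control and 76.5 with Wnt3a, or 5.86 and 6.28. The difference of 0.42 lay just outside the range of -0.33 to 0.33 that held the central 95% of measured genes. Among the 1322 measured genes whose mean level lay within 0.5 of its own, that range was -0.38 to 0.42. In that group 33 genes, Slc16a10 included, had as high a difference. The members were chosen with earlier results known, so nothing is read from this count. The control value was below the floor of 6, and with the floor in its place this probe set was 1.21-fold higher. The 3 other probe sets of Slc16a10 were below the floor on both arrays and differed by -0.17, 0.00 and 0.11. As a mean over all 4 probe sets, the difference was 0.09. The probe sets of this transporter did not share a direction.

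Dio2 had 3 probe sets, and they gave different answers. The brightest is the one described above. Another, which the annotation ties to the same cDNA record as the brightest, went from 53.0 to 47.5 in intensity (5.76 to 5.60), a difference of -0.16, and was below the floor on both arrays. The remaining one, tied to another Dio2 cDNA record, went from 63.9 to 78.4 (6.02 to 6.31), a difference of 0.29. The SD of the 3 differences was 0.81, and their mean was 0.52, which is below 1.5-fold, so the call at 2-fold or at 1.5-fold rests on the brightest probe set. The annotation used here does not place the probe sets on the transcript, and whether they detect different transcript forms was not tested.

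**Figure D2:**
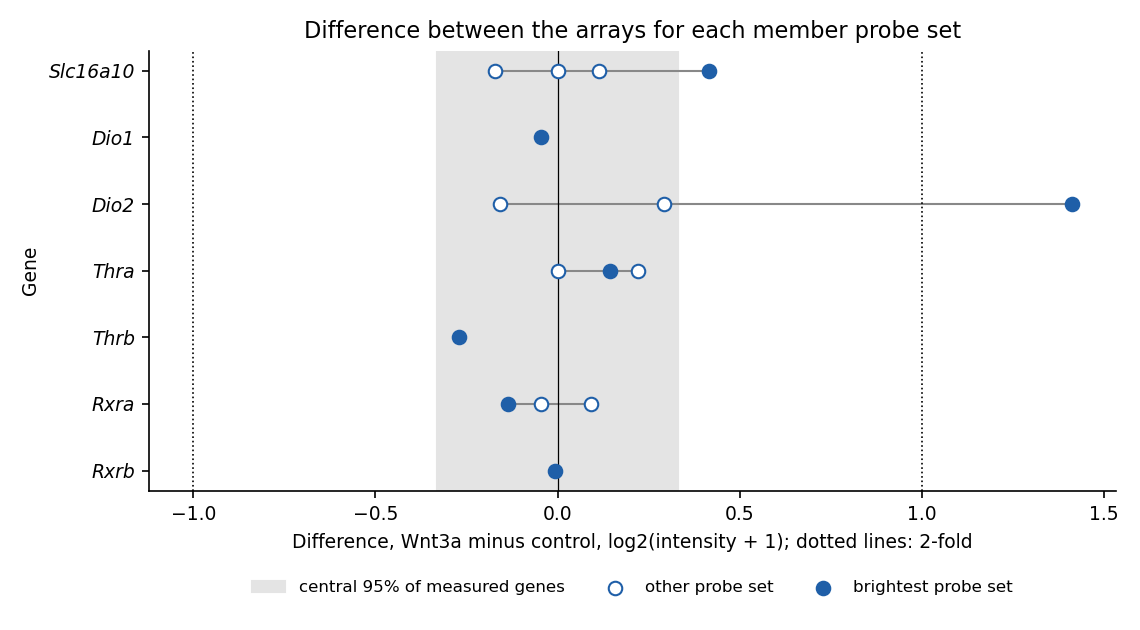
Difference between the arrays (Wnt3a minus control, log2 scale) for each member probe set, with the brightest probe set of a gene filled and the others open. The grey band is the central 95% of measured genes (-0.33 to 0.33) and the dotted lines mark 2-fold; a single Dio2 probe set passes a dotted line, and the 3 probe sets of Dio2 run from -0.16 to 1.41.

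This spread was wide for the arrays. Among 3706 measured genes with 3 or more probe sets, the differences of a gene's probe sets spanned a median of 0.24, and those of Dio2 spanned 1.57. As wide a span was found for 3 genes in all (0.0809%), Dio2 with Car3, a muscle carbonic anhydrase (1.46 to 3.80 on 4 probe sets), and Ism1, a secreted protein gene (0.02 to 2.25 on 3 probe sets). A large difference on a probe set widens the span by itself: the 15 genes with 3 or more probe sets and at least 2-fold between the arrays had a median span of 1.27. Car3 was higher on each of its probe sets, whereas Dio2 was not.

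By its brightest probe set, Dio2 ranked 22nd from the highest among the 11397 measured genes. Dio2 was chosen with this difference known, so nothing is read from its rank or from the count that follows. Dim probe sets vary more, so its surroundings matter. Of the 1679 measured genes whose mean level lay within 0.5 of that of Dio2, the central 95% had differences from -0.34 to 0.45, and 7, Dio2 included, had a difference as high as that of Dio2. The control level of 6.39 was near the floor, and the floor is a fixed brightness and no detection limit. Probe sets of Tg, Ttr, Apoa1 and Gh, which encode products of thyroid, liver and pituitary, also passed it, with control levels of 7.76, 6.92, 7.08 and 6.62 and differences of 0.07, 0.10, 0.21 and 0.05. Passing the floor was therefore not read, on its own, as expression in these cells.

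**Figure D3:**
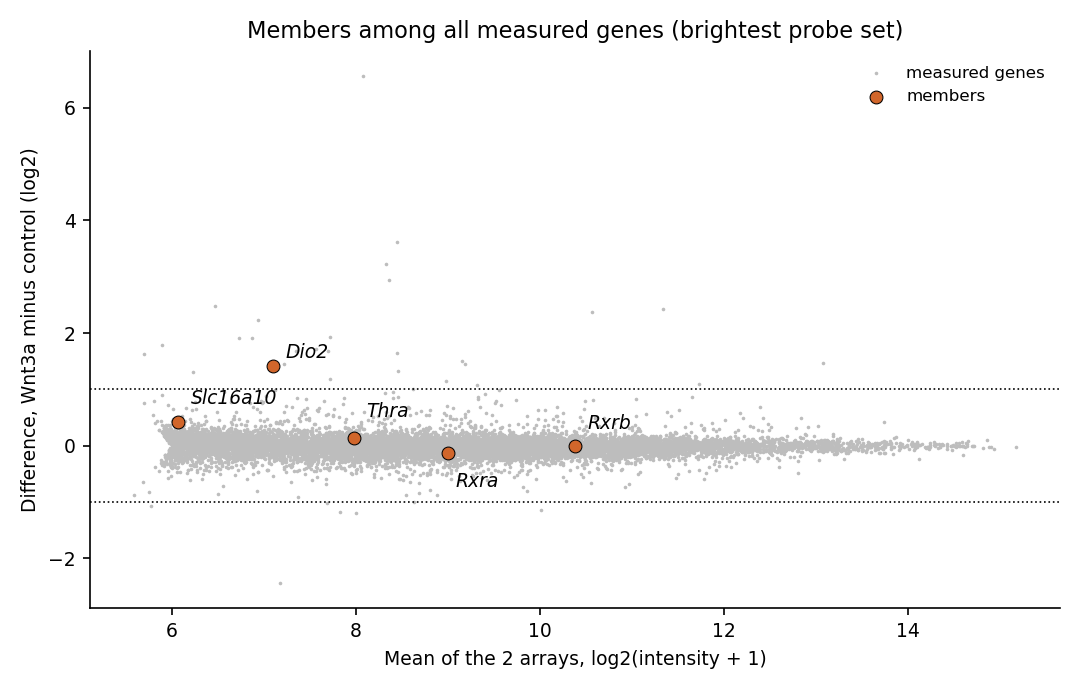
Difference between the arrays against the mean level for the brightest probe set of all 11397 measured genes (grey) and of the 5 measured members (orange), both axes on the log2 scale. Dio2, at a difference of 1.41, lies above the dotted 2-fold line, and the other 4 members lie between -0.14 and 0.42.

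The 250 bases before the start of Dio2 are shown because this is the one member past 2-fold. They come from RefSeq, build GRCm38.p6, at chr12:90739039-90739288 on the minus strand, and capitals mark the motif found.

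Dio2 promoter: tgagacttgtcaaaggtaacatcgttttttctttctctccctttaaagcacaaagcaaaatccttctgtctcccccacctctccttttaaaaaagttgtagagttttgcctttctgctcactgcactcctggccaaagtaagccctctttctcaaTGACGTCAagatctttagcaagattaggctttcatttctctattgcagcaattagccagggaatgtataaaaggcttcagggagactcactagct

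The capitals are a cyclic AMP response element (CRE, TGACGTCA), bases -95 to -88 counted from the start. The same letters stood in 1.55% of the 32851 windows of this length in the table. CRE-binding factors respond to cyclic AMP, a signal long known to induce Dio2 in brown fat. The partial CRE TGACG was searched on its own as well and lies inside this element on both strands, and 17.8% of all windows held it. The TCF/LEF motif, bound by the partners of β-catenin, was searched on both strands as CTTTG followed by A or T at each of the next 2 positions. It was not among these 250 bases, and 14.8% of all windows held it. The FOXO motif GTAAACA (3.17% of windows), the GLI motif GACCACCCA (0.225%) and the nuclear receptor element AGGTCA (14.0%) were not found there either. A window this short says nothing of sites elsewhere, and binding was not measured.

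Of the 8 members 7 matched the promoter table, with 10 windows in all. Of the others, Dio1 held a TCF/LEF match from -176 to -170, and Rxrb a FOXO match from -59 to -53 in 1 of its 2 windows. The nuclear receptor element stood in 1 of 2 windows of Rxra, at -87 to -82 and at -48 to -43, and in 1 of 2 of Thrb. The partial CRE was also found in 1 window each of Thrb and Rxrb. The windows of Slc16a10 and Dio3 held none of the motifs.

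Dio1, the deiodinase of liver, kidney and thyroid, had 1 probe set, at 15.5 in the control and 14.99 with Wnt3a. Its levels of 4.04 and 4.00 were far below the floor, and no fold was taken from them. Of the deiodinases with a probe set of their own, Dio2 alone was measured. Dio3 had no such probe set, so nothing is known here of its level.

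Thra encodes the receptor that predominates in skeletal muscle and heart, together with a splice form that does not bind the hormone. Its brightest probe set was at 238.8 in the control and 263.9 with Wnt3a (7.91 and 8.05), a difference of 0.14. The other 2 went from 187.6 to 218.9, a difference of 0.22, and stayed at 72.4 on both arrays with identical deposited values. All 3 probe sets were above the floor on both arrays, none was lower with Wnt3a, and all lay inside the central 95% of measured genes. With 1 array each, a difference of this size was not distinguishable from the spread between genes.

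Thrb, the receptor best known in liver, pituitary and inner ear, had 1 probe set, at 33.6 in the control and 27.6 with Wnt3a. Both levels (5.11 and 4.84) were below the floor, and the difference of -0.27 carries no fold. Of the 2 receptor genes, Thra was the measured one.

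Rxra and Rxrb encode RXR proteins that pair with the thyroid receptors and with many other nuclear receptors. The brightest probe set of Rxra was at 534.1 in the control and 485.9 with Wnt3a (9.06 and 8.93), a difference of -0.14. Its second measured probe set went the other way, from 243.2 to 259.2 (0.09), and a dim one, below the floor, gave -0.05. Rxrb was at 1336.4 and 1331.1 (10.39 and 10.38). Its difference of -0.0057 was the median of all 11397 measured genes, so this receptor partner sat at the middle of the arrays. The probe sets of Rxra did not share a direction, and Rxrb had 1 probe set.

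Over the 5 measured members, 3 were higher and 2 lower, beside 47.3% and 51.2% of all measured genes. Their median difference was 0.14, and that of all measured genes was -0.0057. Slc16a10 passed the floor on the Wnt3a array alone (5.86 in the control, 6.28 with Wnt3a), so it could count only as higher. Over all 16 probe sets, 7 were higher, 7 lower and 2 identical on both arrays, beside 48.6% higher and 47.9% lower of all 34945 probe sets assigned to 1 gene.

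All directions are relative to the bulk of genes. The 42 spike-in control probe sets were all lower on the Wnt3a array, by 0.09 to 0.40 with a median of -0.19. Scaling on them adds 0.19 to every difference, which takes the measured difference of Slc16a10 to 0.61, past 1.5-fold but from a control value below the floor, and turns the small negative differences of Rxra (0.05), Rxrb (0.18) and Dio1 (0.14) positive. As a check that the label holds, Axin2, a direct target of β-catenin, was 12.2-fold higher (6.64 to 10.25) on the Wnt3a array.

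Other genes of the system were taken from 9 fixed lists, each described by its measured members. The measured transporters differed little. Of 14 listed transporters 12 had a probe set and 7, Slc16a10 among them, were measured. On their brightest probe sets 7 were higher, where 47.3% of all measured genes were, with a median of 0.14. With each array centred on its median, 6 were higher and 1 lower. Slc16a10 passed the floor on the Wnt3a array alone, so it could count only as higher. Those with the next largest differences after Slc16a10 were the organic anion transporters Slco3a1 (0.19, but -0.09 on another probe set), Slco2b1 (0.17) and Slco1a4 (0.14). The brightest probe set of Slco4a1 gave 0.06 and its other one -0.41. The light chain Slc7a5 and the heavy chain Slc3a2, which together carry amino acids and thyroid hormones, were at 0.03 and 0.01. None of the 7 reached 1.5-fold, and no direction is claimed for the list.

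Genes listed for deiodinase turnover and regulation, Hedgehog pathway genes among them, were divided. The list is not confined to genes that act on Dio2. Of its 13 measured genes, 6 had a positive difference and 7 a negative one, and the middle value was -0.02. Among all measured genes, 47.3% had a positive difference and 51.2% a negative one. Wsb1, the ubiquitin ligase adaptor that marks Dio2 for degradation, was level (10.75 and 10.72, -0.03). The deubiquitinases that reverse this mark, Usp33 (8.41 to 8.08, -0.33) and Usp20 (9.19 to 8.94, -0.24), were both lower, the latter with values up to 0.11 on its other probe sets. Foxo3, known to activate Dio2 in muscle precursors, differed by 0.10, with -0.12 to 0.11 over 3 probe sets. Creb1, which encodes a CRE-binding factor, differed by -0.22 on its brightest probe set, with -0.22 to 0.10 over 6 and a mean of -0.06. Gli3, a Hedgehog transcription factor, was 1.76-fold higher (9.34 to 10.15), and its 3 probe sets gave 0.16, 0.61 and 0.82. Of the other Hedgehog genes, the receptor gene Ptch1 differed by -0.02, and the transcription factor gene Gli1 was below the floor at 5.60 and 5.66. The part of these genes in the Dio2 value was not tested.

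Deiodinases are selenoproteins and need a dedicated machinery to insert selenocysteine. In that machinery 11 of 13 measured genes were lower and 2 higher, where 51.2% of all measured genes were lower. The median was -0.07. Spike-in scaling turned this to 2 lower and 11 higher, with a median of 0.12. The largest difference was that of Sephs2, which makes the selenium donor (10.91 to 10.53, -0.39, and up to 0.03 on its other probe sets). It was followed by Trit1 (-0.21), Eefsec, the selenocysteine elongation factor (-0.17), and Pstk (-0.12). The other selenoproteins were close to level, 8 higher and 12 lower of 20 measured, with a median of -0.01. Txnrd3 (-0.28) and Selenoi (-0.21) were lower on every probe set they had, and Selenok (-0.14) likewise. None of either list reached 1.5-fold.

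Of the genes that bind or metabolise the hormone, only Ttr was measured among 8 with a probe set. Crym, the cytosolic binding protein of triiodothyronine, was below the floor on both arrays.

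A list of RXR genes and other nuclear receptors, Rxra and Rxrb included, gave 4 higher and 6 lower of 10 measured (median -0.05). Among all measured genes, 47.3% were higher and 51.2% lower. Many of the listed receptors pair with RXR, though not all do. The largest differences were those of Nr4a2 (-0.48, with -0.57 to 0.10 over 6 probe sets), Nr1d1 (0.26) and Rara (-0.25). Nr1d1 encodes a haem-binding repressor of the circadian clock that binds DNA without RXR. Rxrg, the RXR form typical of muscle and brain, was dim and differed by -0.18 (6.40 to 6.22). Receptors such as Ppara, Pparg, Vdr and Rarb were below the floor on both arrays.

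Most coregulators of the receptors lay inside the central 95% of measured genes (-0.33 to 0.33). Ppargc1a, Nrip1 and Ppargc1b lay outside it. All 22 coactivator genes were measured, 14 higher and 8 lower (median 0.04), beside 47.3% and 51.2% of all measured genes. Under spike-in scaling 21 were higher and 1 lower. Ppargc1a, which encodes the coactivator PGC-1α, was below the floor in the control on all 5 probe sets and above it with Wnt3a on all 5. This gene could therefore count only as higher. Its brightest went from 5.22 to 7.71, or 3.27-fold higher with the floor in place of the control level. The 5 differences ran from 2.33 to 2.89. Its relative Ppargc1b went the other way (9.82 to 9.40, -0.42, 1 probe set). Ncoa1 (0.15), a steroid receptor coactivator, and Ep300 (0.13), a histone acetyltransferase, differed little. Unlike those of Dio2, the probe sets of Ppargc1a shared a direction. Their control levels were all below the floor, so the sizes of their differences are uncertain.

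Of the 11 measured corepressor genes 7 were higher and 4 lower (median 0.05), beside 47.3% and 51.2% of all measured genes. Hr passed the floor on the Wnt3a array alone, so it could count only as higher. Under spike-in scaling 9 were higher and 2 lower. Nrip1, a repressor of metabolic genes bound by many nuclear receptors, had a difference of 0.51 on its brightest probe set and -0.07 to 0.51 over 6. Its probe sets above the floor gave 0.00, 0.28, 0.40 and 0.51, and the -0.07 came from a dim one. The histone deacetylase gene Hdac2 was at -0.25, Cops2 at -0.22, and Hr, a corepressor that is itself a thyroid hormone target, at 0.19 with a control value below the floor and -0.21 on its other probe set.

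Genes known to respond to thyroid hormone in various tissues did not share a direction, with 19 higher and 11 lower of 30 measured and a median of 0.05. The list gives no expected direction for any gene, so these counts are no measure of a hormone response. Past 1.5-fold were Ppargc1a, Angptl4, a lipoprotein lipase inhibitor (9.84 to 10.52, 0.68, and 0.17 on a dim probe set), and, on the low side, Foxo1, a transcription factor of fasting and atrophy (9.73 to 9.12, -0.61). Foxo1 gave -0.67, -0.61 and -0.50 on the 3 probe sets above the floor and 0.00 on a dim one. With the mean of all probe sets 1 gene of the list passed 1.5-fold on the high side and 0 on the low side, and under spike-in scaling 2 and 0. The high count was also 1 with a floor of 8 and without the probe sets whose IDs mark a match to more than 1 transcript. Klf9, a direct target in many tissues, differed by -0.18 (8.18 to 8.01), and Myog, the differentiation factor, by -0.50 (10.11 to 9.61). These arrays measured transcripts after 4 hours and hold no measure of hormone or deiodinase activity.

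**Figure D4:**
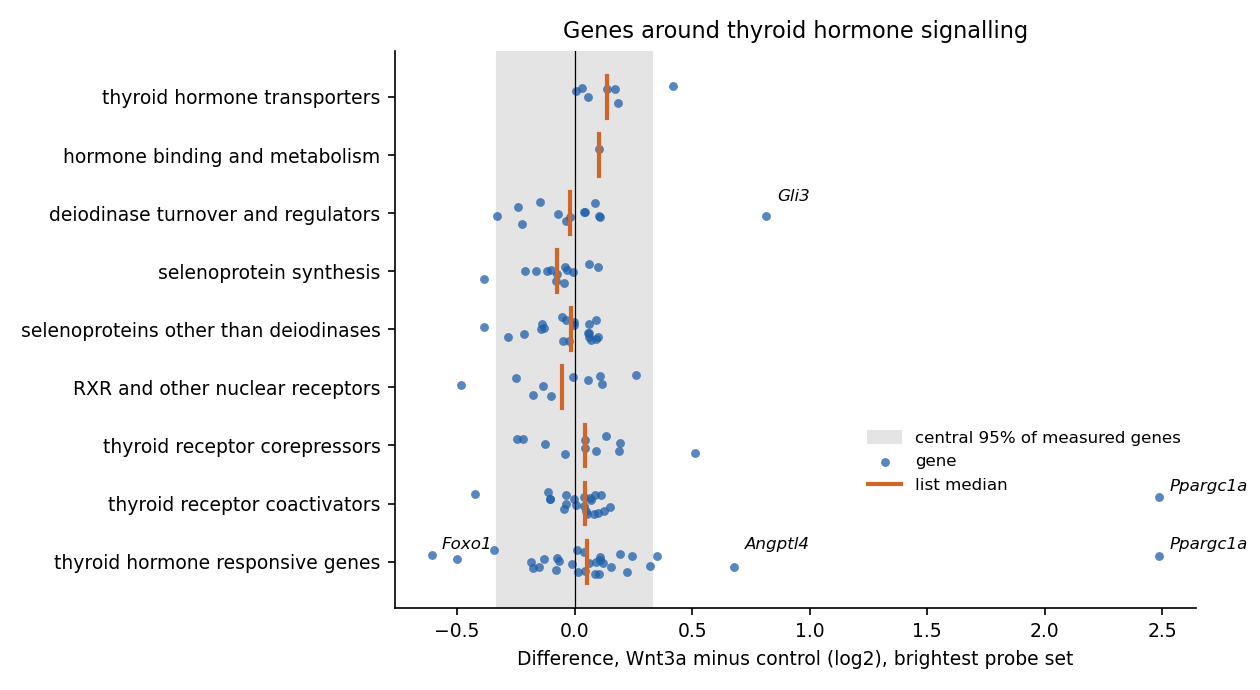
Difference between the arrays (Wnt3a minus control, log2 scale) for the measured genes of the 9 lists, 1 point per gene, with an orange bar at each list's median and a grey band for the central 95% of measured genes. Genes past 1.5-fold are named: Ppargc1a, Gli3 and Angptl4 to the right of the band and Foxo1 to its left. Some unnamed genes also lie outside the band, on both sides. List medians lie between -0.07 and 0.14.

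Markers of the cell type fitted the label. All 9 myoblast markers were measured, 5 higher and 4 lower. Myod1 (13.41 and 13.28) and Pax7 (11.20 and 11.08) were near level, while Vcam1 (-0.63), Myf5 (0.49), Des (0.32) and Itga7 (-0.26) differed most. Of fibroblast markers 2 of the 10 with a probe set were measured, of leukocyte markers 3 of 7, of endothelial 2 of 7 (with Tek at -0.82, below the floor on the Wnt3a array), of Schwann cell 3 of 4 and of smooth muscle and pericyte 3 of 7. The summed intensity of each list went from 44425 to 45115 for myoblasts, 11333 to 9688 for fibroblasts, nearly all Col3a1, and 8694 to 10305 for smooth muscle, mostly Acta2, which myoblasts express too. It went from 484.3 to 501.3 for leukocytes, 269.0 to 238.3 for endothelium and 688.5 to 725.9 for Schwann cells. No marker is at 0 on this platform, and the part of other cells in the Dio2 value was not tested. In such bulk RNA, more cells with a transcript and more transcript per cell cannot be told apart.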

How the data were processed

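Per the labels' protocols, biotinylated cRNA was made from Trizol-extracted RNA with an Affymetrix 3′ kit. The authors deposited 1 linear intensity per probe set and array (7.07 to 37075). The submitters' processing notes name limma, RMA and affy, without versions or order. How the intensities became linear, and the genome build, are not given in the sources used here.

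Of 45101 probe sets, 64 controls were left out. GEO's annotation gave 34945 probe sets 1 gene, 932 several and 9160 none. Differences are Wnt3a minus control of log2(intensity + 1). A gene's brightest probe set has the highest mean. The members and lists were chosen with earlier results of these data known. Named were all members, up to 4 largest differences per list, any list gene at 2-fold, and Ppargc1a, Foxo3, Gli1, Ptch1, Axin2, Rxrg, Wsb1 and Klf9; other names were chosen after their values were seen. Some listed genes are not reported here. Alternatives covered probe set choice, pseudocount, floor and scaling. The script was tested on simulated data. Computations ran in Python 3.11.15 with pandas 2.3.3, numpy 2.4.6, statsmodels 0.14.6 and matplotlib 3.10.9.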

Additional observations from a re-analysis of the deposited data

How the results depend on the processing

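Dio2 was higher as reported and in the 8 alternatives that keep the floor at 6, from 0.52 to 1.60. It was 0.52 with the mean of all probe sets, where 0 members passed 1.5-fold, 1.27 with a pseudocount of 16 and 1.60 under spike-in scaling, where 2 members passed. With a floor of 8 no member passed (0), since Dio2 is not measured there. The members' median was 0.33 under spike-in scaling and -0.0057 with no floor and with a floor of 8, which changes the genes in it. Spike-in scaling shifted all measured genes to a median of 0.19. It gave 1.85% of measured genes at least 1.5-fold higher, 0.139% lower, 0.417% at least 2-fold higher and 0.00868% lower. The share at least 2-fold lower was 0.0391% with the mean of all probe sets, 0.0325% with a pseudocount of 16 and 0.0385% with no floor. Quantile normalization and removal of a loess trend turned Rxrb to 0.01. Medians of 4 of 10 lists changed sign under spike-in scaling. In each list more genes were then higher than lower, so the direction counts depend on the scaling. Shifts of a value between these settings were judged against an SD of 0.12 between probe sets of a gene. That SD covers no noise between cultures and is no error of a difference between the arrays. For Dio2 the SD of its 3 differences was 0.81. No paired analysis was possible because each condition has 1 array. Signal near the floor limits Dio2, Slc16a10, Dio1 and Thrb.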

Other observations

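The deposited values of 1689 of the 45101 probe sets (3.74%) were the same on both arrays, as were those of 2 of the 16 member probe sets, 1 of Thra and 1 of Slc16a10. The labels do not say how such values arose.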
